A study of Arabidopsis thaliana with 38 samples.

Results

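LHCB4.1, LHCB4.2, PSAE-1, PSAN and ATPC1 are 5 nuclear Arabidopsis thaliana genes whose proteins are imported into the chloroplast and work at the thylakoid membrane. They were followed through total, polysomal and CSP1-immunopurified RNA, in cold and in non-stress plants, with the probe sets annotated to exactly 1 of them as the rule of choice. Each gene had 1 such probe set, so the members are 5 of the 13356 genes that the array annotation names through a probe set of their own, and 5 of the 22746 probe sets tested. They were LHCB4.1 (locus AT5G01530, probe set 251082_at), LHCB4.2 (AT3G08940, 258993_at), PSAE-1 (AT4G28750, 253738_at), PSAN (AT5G64040, 247320_at) and ATPC1 (AT4G04640, 255290_at).

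Rosettes of 25-day-old Col-0 plants were profiled on 38 Affymetrix ATH1 arrays, in 16 groups. The mutant atcsp1-1 carries a mutation in CSP1, a cold shock domain protein that binds RNA, and gave 2 arrays per group of polysomal and total RNA. A single line, 35S:AtCSP1-FH#11 (CSP1-FH), expressed tagged CSP1 from the broadly active viral 35S promoter and gave 2 arrays per group of all RNA pools. The comparison line, 35S:HF-RPL18 #12-2-4 (HF-RPL18), expressed tagged ribosomal protein L18 from the same promoter and gave 3 arrays per group of all RNA pools, so no group came from plants without either a transgene or the mutation. Cold plants spent 12 h at 4 °C under lower light than the non-stress plants, which stayed at 23 °C, so temperature and light cannot be told apart. CSP1-IP RNA (10 arrays) was recovered with an antibody to CSP1 after formaldehyde cross-linking of intact leaves, polysomal RNA (14 arrays) was the sucrose gradient fraction with at least 2 ribosomes per mRNA, and total RNA made up the other 14 arrays. CSP1 had no named probe set, so the mutant and the tagged line were not checked by that gene. Of 8 leaf mesophyll markers 1 was measured, rubisco activase (RCA), with log2 signals of 9.89 to 12.48 in CSP1-IP RNA and 12.95 to 13.65 in the other pools, while markers of root, flower, phloem and xylem had no named probe set.

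LHCB4.1 and LHCB4.2 encode isoforms of CP29, a minor chlorophyll-binding antenna protein that joins the light-harvesting trimers to the core of photosystem II. PSAE-1 and PSAN encode small subunits of photosystem I: PsaE lies on the stromal side, near the site where ferredoxin is reduced, and PsaN lies on the lumenal side, near the site where plastocyanin docks. ATPC1 encodes the main leaf isoform of the gamma subunit of the chloroplast ATP synthase, the rotating shaft of the enzyme, whose activity is switched on in light by reduction of a disulfide. The mRNAs of all these genes are translated on cytosolic ribosomes, whereas those of their plastid-encoded partner subunits are translated inside the chloroplast.

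All 5 genes gave high signals in all 16 groups. Their lowest group means still stood at or above the 98.69th percentile of the tested probe sets of that group, which was reached by LHCB4.2 in CSP1-IP RNA. Values are the authors' RMA log2 signals, on which a difference of 1 is a factor of 2, and the level of one probe set cannot be set against that of another. The highest value on any array lay between 13.5 and 14.08, and PSAE-1 lay at 12.42 to 13.40. Group means spanned 1.98 log2 units for LHCB4.2 (10.72 to 12.69), 1.90 for ATPC1 (10.73 to 12.63), 1.51 for PSAN (11.79 to 13.30), 1.25 for LHCB4.1 (11.98 to 13.23) and 0.53 for PSAE-1 (12.76 to 13.29).

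The order of the groups differed between the genes. For LHCB4.2 the lowest 4 means were the CSP1-IP groups (10.72 to 11.08), the next 6 were the non-stress groups of total and polysomal RNA (11.32 to 11.98), and the highest 6 were the cold groups of those pools (12.06 to 12.69). For ATPC1 the 4 CSP1-IP groups were again lowest (10.73 to 11.07), but the 6 cold groups of total and polysomal RNA came next (11.98 to 12.27) and the 6 non-stress groups were highest (12.32 to 12.63). LHCB4.1 and PSAN had the 4 CSP1-IP groups lowest, at 11.98 to 12.28 and at 11.79 to 12.21, and then the other 12 groups within 0.37 and 0.42 log2 units of each other. PSAE-1 had its CSP1-IP groups spread among the others, in places 1, 3, 4 and 9 of 16. Most neighbours in these orders did not differ beyond their spread: the arrays of neighbouring groups overlapped in 14 of 15 pairs for LHCB4.1, 14 of 15 for LHCB4.2, 15 of 15 for PSAE-1, 13 of 15 for PSAN and 11 of 15 for ATPC1. Below, arrays of some compared groups are said not to overlap. The share of all probe sets that separate in the same way is not given, so such gaps may be common.

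**Figure D1:**
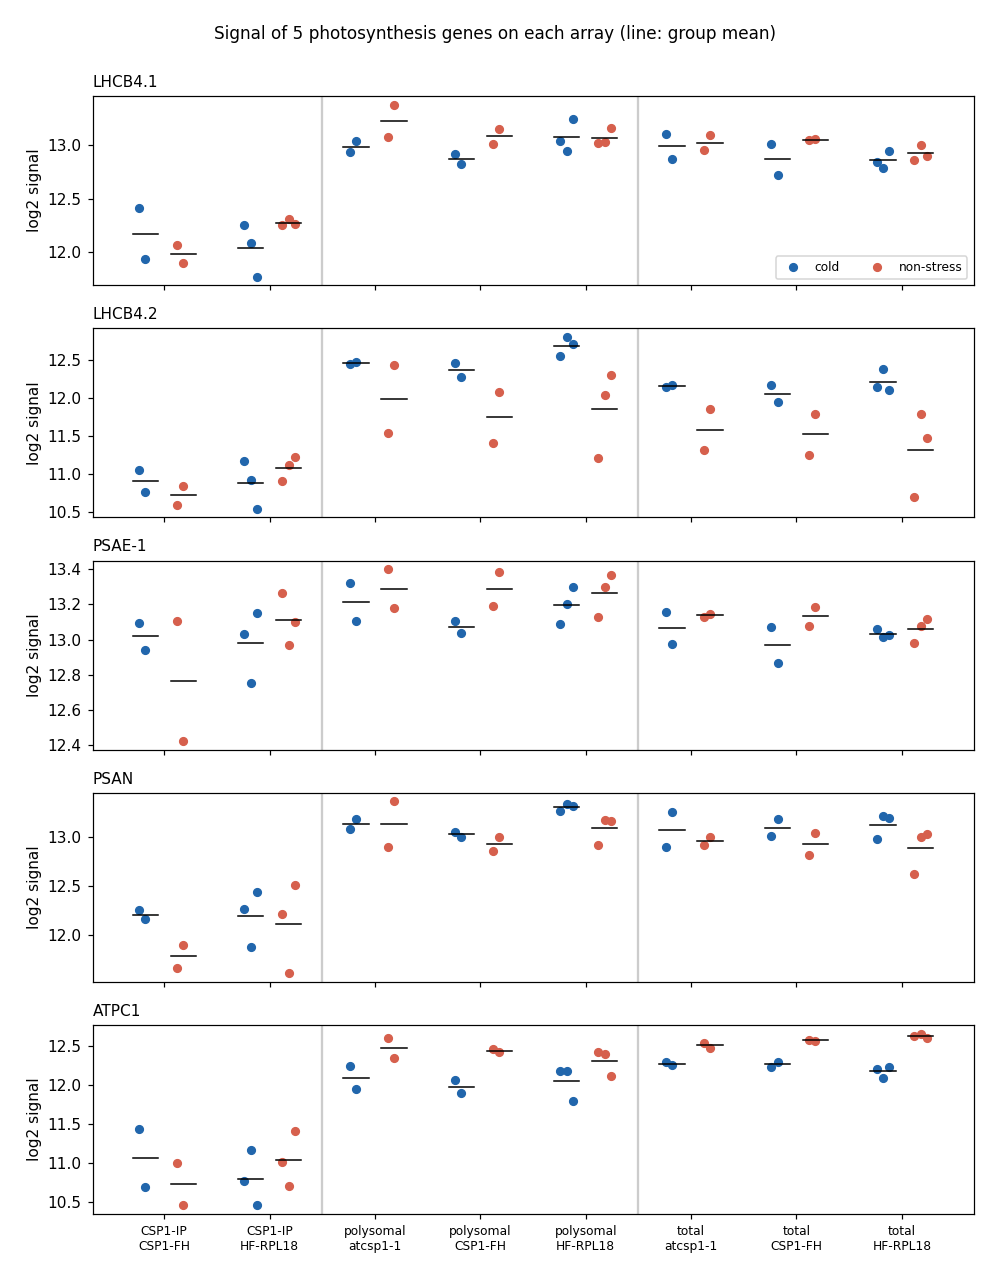
Log2 signal (y axis, a separate scale for each gene) on every array, by RNA pool and line (x axis); blue points are cold arrays, red points non-stress arrays and black lines group means. For LHCB4.1, PSAN and ATPC1 every CSP1-IP array lies below every polysomal and total array, while PSAE-1 overlaps between the pools; in total RNA the cold arrays of LHCB4.2 lie above, and those of ATPC1 below, the non-stress arrays of all lines. The share of all probe sets with such gaps is not given.

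The first comparison asked whether cold changed the RNA of these genes in the leaf. In total RNA the CP29 gene LHCB4.2 was higher in cold in all 3 lines and ATPC1 was lower, while LHCB4.1, PSAE-1 and PSAN moved by at most 0.24 log2 units. The rise of LHCB4.2 in HF-RPL18 was the only one of these that passed the test, at 0.89 (SE 0.27, limma adjusted p = 0.0326, 3 arrays a group), a 1.86-fold difference. LHCB4.2 thus was 1 member called higher of 5, and 5.32% of all probe sets were called higher in that comparison. In whole-rosette RNA, fewer cells of a type and less RNA per cell cannot be told apart.

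LHCB4.2 had total RNA signals of 12.14, 12.38 and 12.11 in cold HF-RPL18, against 10.69, 11.80 and 11.47 in non-stress HF-RPL18. In CSP1-FH it had 12.17 and 11.95 in cold and 11.25 and 11.79 in non-stress plants. In atcsp1-1 it had 12.15 and 12.17 in cold and 11.31 and 11.85 in non-stress plants. All 7 cold arrays (11.95 to 12.38) lay above all 7 non-stress arrays (10.69 to 11.85), and the non-stress arrays were the more scattered. The differences were 0.54 in CSP1-FH (adjusted p = 0.549) and 0.57 in atcsp1-1 (adjusted p = 0.447), neither of which passed, with 5.69% and 7.15% of probe sets called in those comparisons and none of the 5 genes.

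The non-stress array numbered 1 was the lowest of its group for LHCB4.2 in 8 of 8 non-stress groups, across lines and RNA pools, but in only 3 of 8 cold groups. Array 1 was also lowest in 7 of 8 non-stress groups for LHCB4.1 and PSAN, 5 of 8 for PSAE-1 and 0 of 8 for ATPC1. Without the arrays numbered 1 of HF-RPL18, a setting chosen after the values were seen, the LHCB4.2 difference in total RNA was 0.61 (limma adjusted p = 0.242). Without array 1 of non-stress total RNA alone it was 0.58 (adjusted p = 0.266). Some other settings kept the size of the difference but not the call: it was 0.97 without non-stress array 3 (adjusted p = 0.0551), 0.81 to 0.94 without any 1 of the cold arrays (adjusted p = 0.0597 to 0.135) and the same 0.89 with only the 2 groups compared in the fit (adjusted p = 0.0736). The call was kept with cyclic loess, array medians subtracted, no dim probe sets, no CSP1-IP arrays, array weights or a block for the replicate number. In those settings the difference was 0.83 to 1.00 (limma adjusted p = 0.00969 to 0.0385). Without non-stress array 2 it was 1.13 (adjusted p = 0.0139). Averaged over the 3 lines, again a comparison chosen after the values were seen, LHCB4.2 was 0.67 higher in cold (SE 0.18, limma adjusted p = 0.0071), with 23.2% of probe sets called in that average. Same-numbered total RNA arrays of HF-RPL18 and each other line deviated together (r 0.224 to 0.585), so the lines are not independent repeats.

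ATPC1 had total RNA signals of 12.20, 12.09 and 12.24 in cold HF-RPL18, against 12.63, 12.66 and 12.60 in non-stress HF-RPL18. In CSP1-FH it had 12.24 and 12.29 in cold and 12.58 and 12.57 in non-stress plants. In atcsp1-1 it had 12.29 and 12.26 in cold and 12.54 and 12.48 in non-stress plants. The 7 cold arrays (12.09 to 12.29) all lay below the 7 non-stress arrays (12.48 to 12.66), and the SD within these groups was 0.011 to 0.077. The differences were −0.45 in HF-RPL18 (95% interval −0.86 to −0.05, adjusted p = 0.175), −0.31 in CSP1-FH and −0.24 in atcsp1-1, and none passed. The average over the lines was −0.33 (limma adjusted p = 0.0715). The SD of ATPC1 was 0.36 to 0.52 in the CSP1-IP groups, which enter the model's common estimate of the spread. Without the CSP1-IP arrays in the fit the HF-RPL18 difference, at the same −0.45, passed (limma adjusted p = 0.00882), as it did with only the 2 groups compared (adjusted p = 0.0268) and with array weights (adjusted p = 0.00652).

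LHCB4.1 differed by −0.07 in HF-RPL18, −0.19 in CSP1-FH and −0.04 in atcsp1-1 total RNA, none of which passed. Within an array, LHCB4.2 minus LHCB4.1 was −0.96 to −0.40 on the 7 cold total RNA arrays and −2.18 to −1.21 on the 7 non-stress ones, with no overlap. PSAN differed by 0.24, 0.17 and 0.11 in these lines, and PSAE-1 by −0.02, −0.17 and −0.07, none called. The intervals of these differences over all pools and lines reached from −0.61 to 0.56 for LHCB4.1, −0.60 to 0.64 for PSAE-1 and −0.47 to 0.89 for PSAN.

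In polysomal RNA, too, LHCB4.2 was above and ATPC1 below its non-stress level in each line. LHCB4.2 had polysomal signals of 12.56, 12.81 and 12.71 in cold HF-RPL18, against 11.21, 12.04 and 12.30 in non-stress HF-RPL18. The groups did not overlap, and the difference of 0.84 (SE 0.27) was just short of the threshold (limma adjusted p = 0.0525). With a block for the replicate number, by which these arrays pair, the same difference passed (limma adjusted p = 0.0273), while without the arrays numbered 1 it was 0.59 (adjusted p = 0.292). LHCB4.2 had 12.46 and 12.28 in cold and 11.41 and 12.09 in non-stress polysomal RNA of CSP1-FH, and 12.46 and 12.48 in cold and 11.54 and 12.43 in non-stress polysomal RNA of atcsp1-1. The groups did not overlap there either, though by a narrow margin in atcsp1-1, and the differences of 0.62 in CSP1-FH (adjusted p = 0.468) and 0.48 in atcsp1-1 (adjusted p = 0.622) did not pass. ATPC1 had 12.18, 12.18 and 11.80 in cold and 12.43, 12.40 and 12.12 in non-stress polysomal RNA of HF-RPL18, which overlap, and its differences were −0.26 in HF-RPL18 (adjusted p = 0.586), −0.46 in CSP1-FH (adjusted p = 0.444) and −0.38 in atcsp1-1. The CSP1-FH difference of ATPC1 passed without the CSP1-IP arrays in the fit (adjusted p = 0.0483). Averaged over the lines the polysomal differences were 0.65 for LHCB4.2 (limma adjusted p = 0.0102) and −0.37 for ATPC1 (adjusted p = 0.0494), both past the threshold, with 20.2% of probe sets called. None of the 5 genes was called in a single line in polysomal RNA, where limma called 9.06% of probe sets in HF-RPL18, 4.58% in CSP1-FH and 6.28% in atcsp1-1, and 1 gene (LHCB4.2 in HF-RPL18) had an unadjusted p under 0.05.

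In CSP1-IP RNA no member was called between cold and non-stress plants by limma, none had an unadjusted p under 0.05, and the directions were mixed. LHCB4.2 differed by −0.21 in HF-RPL18 (adjusted p = 0.596) and 0.19 in CSP1-FH. ATPC1 differed by −0.24 in HF-RPL18 and 0.34 in CSP1-FH. PSAN was higher by 0.08 in HF-RPL18 and by 0.42 in CSP1-FH (adjusted p = 0.275). Averaged over the 2 lines with CSP1-IP arrays, LHCB4.2 differed by −0.01 (95% interval −0.45 to 0.44). In these comparisons 28.5% of probe sets were called in HF-RPL18, 8.65% in CSP1-FH and 21.0% in the average. The difference of these differences, the cold change in CSP1-IP less that in total RNA, was −1.1 for LHCB4.2 in HF-RPL18 (SE 0.39, limma adjusted p = 0.0943) and −0.34 in CSP1-FH (adjusted p = 0.882), so a smaller cold change in the CSP1-IP pool did not pass the test in either line. In those tests 4.48% and 0.101% of probe sets were called.

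**Figure D2:**
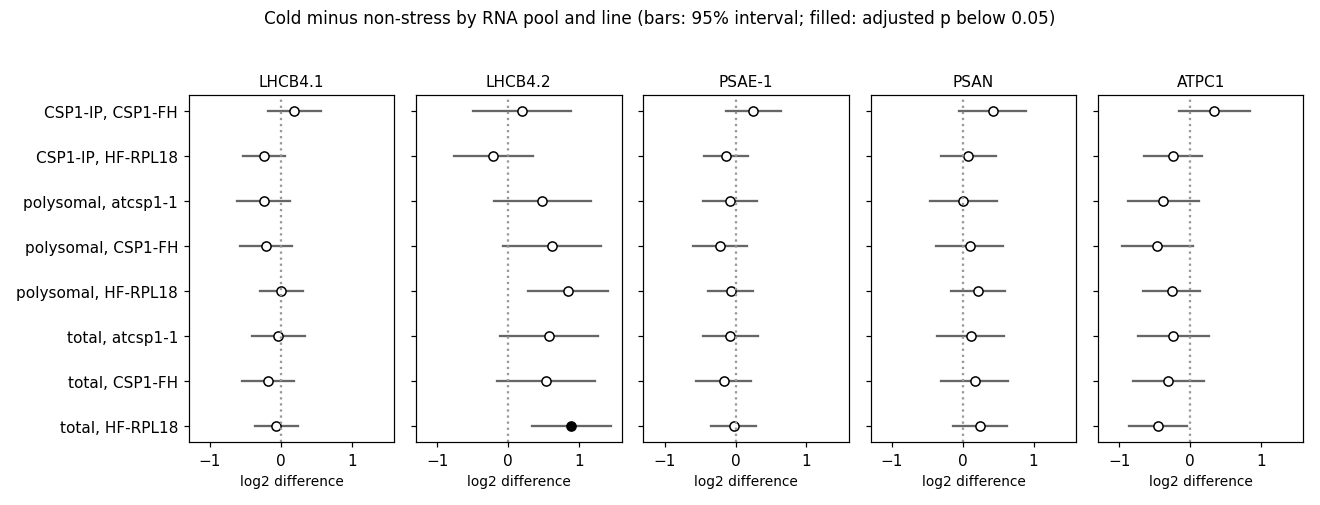
Cold minus non-stress log2 difference (x axis) for each gene, by RNA pool and line (y axis); bars are 95% intervals and filled points passed an adjusted p of 0.05. LHCB4.2 in total RNA of HF-RPL18 is the only filled point; LHCB4.2 is above 0 and ATPC1 below 0 in every line of polysomal and total RNA.

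None of the other measured nuclear photosynthesis genes was called in cold in total or polysomal RNA of any line. Of 69 such genes listed (the remaining subunits of both photosystems, cytochrome b6f, electron carriers, ATP synthase and the Calvin-Benson cycle), 9 had a named probe set, and no further gene of photosystem I was among them. Their median cold differences in total RNA were −0.04 in HF-RPL18, −0.14 in CSP1-FH and −0.20 in atcsp1-1. Among the 32 plastid-encoded subunits, all measured, 0 were called in cold total or polysomal RNA of any line. Of all probe sets, 10.8% were called in cold total RNA of HF-RPL18, 5.69% in CSP1-FH and 7.15% in atcsp1-1. In cold polysomal RNA the shares were 9.06%, 4.58% and 6.28%. Of the markers of other cell types, TRY, a repressor of trichome fate and the only measured gene of 3 trichome markers, was 3.16 to 3.36 in cold and 4.41 to 6.49 in non-stress total RNA of HF-RPL18, a difference of −2.23 (limma adjusted p = 0.0166), and its part in the cold results was not tested. FMA, a guard cell factor and the only measured gene of 4 guard cell markers, was 4.03 to 4.72 in cold and 4.68 to 4.71 in non-stress total RNA of HF-RPL18.

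The second comparison set polysomal against total RNA, to ask whether the mRNAs were found with ribosomes in proportion to their abundance. None of the 5 genes was called in any of the 6 comparisons by limma, and none of the 30 values had an unadjusted p under 0.05. LHCB4.2 was higher in polysomal than in total RNA in 6 of 6 comparisons, by 0.23 to 0.53, and PSAE-1 in 6 of 6, by 0.10 to 0.21. ATPC1 was lower in polysomal RNA in 6 of 6, with differences of −0.32 to −0.03. LHCB4.1 differed by at most 0.22 and PSAN by −0.07 to 0.20.

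In cold HF-RPL18, LHCB4.2 had 12.56, 12.81 and 12.71 in polysomal RNA, against 12.14, 12.38 and 12.11 in total RNA. These groups did not overlap, and the difference of 0.48 did not pass (limma adjusted p = 0.414). In non-stress HF-RPL18 the polysomal arrays of 11.21, 12.04 and 12.30 overlapped the total RNA arrays of 10.69, 11.80 and 11.47 as groups, and the difference was 0.53 (adjusted p = 0.475). Within same-numbered arrays, which pair in this line, LHCB4.2 was higher in polysomal RNA in 3 of 3 cold pairs (by 0.41 to 0.60) and in 3 of 3 non-stress pairs (by 0.25 to 0.82), and no member was called with the replicate number as a block either. Averaged over the 3 lines, polysomal less total RNA was 0.37 for LHCB4.2 in cold plants (adjusted p = 0.23) and 0.39 in non-stress plants (95% interval 0.01 to 0.76, adjusted p = 0.214), with none of the 5 genes called and 10.6% and 9.98% of probe sets called. PSAE-1 averaged 0.14 higher in polysomal RNA of cold plants and 0.17 higher in that of non-stress plants, and ATPC1 averaged −0.19 and −0.16.

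The share of all probe sets called between polysomal and total RNA was itself small: 2.84% in cold and 1.12% in non-stress HF-RPL18, 0.0440% in cold and 0.435% in non-stress CSP1-FH, and 0.0308% in cold and 0% in non-stress atcsp1-1. Of the 32 plastid-encoded subunits, which are translated inside the chloroplast, 4 were lower in polysomal RNA of cold HF-RPL18 (median of the list −0.61) and 0 were called in the other 5 comparisons. Whether cold changed the polysomal share of the members was tested in HF-RPL18 as a difference of differences. It ranged from −0.05 for LHCB4.2 to 0.19 for ATPC1, with no gene called by limma, none at an unadjusted p under 0.05, and 0% of probe sets called.

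The third comparison set RNA recovered with CSP1 against total RNA, to ask whether these mRNAs were over- or under-represented with the protein. The series has no array of a control precipitation and no CSP1-IP array of atcsp1-1. Binding to CSP1 and background carried through the recovery therefore cannot be told apart. On the deposited values LHCB4.1, PSAN and ATPC1 were lower in CSP1-IP RNA in all 4 comparisons, LHCB4.2 was called lower in the 2 cold ones, and PSAE-1 was called in none. ATPC1 was the furthest down, with differences of −1.84 to −1.19, or 2.29- to 3.59-fold. Among the 5 genes, 4 were called lower in cold CSP1-FH, where 14.0% of all probe sets were called lower, and 3 in non-stress CSP1-FH, against 17.2% of probe sets. In HF-RPL18, 4 were called lower in cold plants, against 23.8% of probe sets, and 3 in non-stress plants, against 17.0%.

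ATPC1 had CSP1-IP signals of 11.44 and 10.70 in cold CSP1-FH, against 12.24 and 12.29 in total RNA. In non-stress CSP1-FH it had 11.00 and 10.46 in CSP1-IP RNA and 12.58 and 12.57 in total RNA. In cold HF-RPL18 it had 10.78, 11.18 and 10.46 in CSP1-IP RNA and 12.20, 12.09 and 12.24 in total RNA. In non-stress HF-RPL18 it had 11.01, 10.71 and 11.42 in CSP1-IP RNA and 12.63, 12.66 and 12.60 in total RNA. All 10 CSP1-IP arrays (10.46 to 11.44) lay below all 28 polysomal and total arrays (11.80 to 12.66), and the CSP1-IP replicates were the more scattered. The differences were −1.19 (SE 0.24, limma adjusted p = 0.000657), −1.84 (SE 0.24, adjusted p = 1.91e-06), −1.37 (SE 0.20, adjusted p = 3.48e-06) and −1.58 (SE 0.20, adjusted p = 6.65e-07) in the order just given. These SEs rest on a spread shared by all groups. The SD of ATPC1 was 0.36 to 0.52 within CSP1-IP groups and 0.011 to 0.077 within total RNA groups, so the SEs can be too small here.

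PSAE-1 had CSP1-IP signals of 13.10 and 12.94 in cold CSP1-FH, against 13.07 and 12.86 in total RNA. In non-stress CSP1-FH it had 13.11 and 12.42 in CSP1-IP RNA and 13.08 and 13.19 in total RNA. In cold HF-RPL18 it had 13.03, 12.75 and 13.15 in CSP1-IP RNA and 13.06, 13.01 and 13.03 in total RNA. In non-stress HF-RPL18 it had 13.27, 12.97 and 13.10 in CSP1-IP RNA and 12.98, 13.08 and 13.12 in total RNA. The pools overlapped in every one of these comparisons, and the differences of 0.05, −0.37, −0.06 and 0.05 had 95% intervals that together ran from −0.75 to 0.44. Array 2 of non-stress CSP1-FH, at 12.42, was the lowest of all 38 arrays for PSAE-1. Without array 1 of that group, which leaves only this lowest array there and takes the spread from the other groups, the difference was −0.71 (limma adjusted p = 0.00686); no other array left out gave PSAE-1 a call against total RNA.

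The other photosystem I gene, PSAN, had 11.62 to 12.51 on the 10 CSP1-IP arrays and 12.62 to 13.36 on the 28 other arrays, and its difference from total RNA was −0.88 in cold CSP1-FH, −1.14 in non-stress CSP1-FH, −0.93 in cold HF-RPL18 and −0.77 in non-stress HF-RPL18 (limma adjusted p = 0.000228 to 0.00561). Within an array, PSAE-1 minus PSAN was 0.520 to 1.44 on CSP1-IP arrays, −0.18 to 0.511 on polysomal arrays and −0.31 to 0.36 on total RNA arrays. The CSP1-IP arrays overlapped neither pool, but the margin to the polysomal arrays was slight. PSAE-1 minus ATPC1 was 1.58 to 2.69 on CSP1-IP arrays, 0.70 to 1.5 on polysomal arrays and 0.36 to 0.92 on total RNA arrays, so the CSP1-IP arrays stood apart from both. These within-array differences compare changes between pools and not the levels of the genes.

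LHCB4.1 had 11.77 to 12.41 on the 10 CSP1-IP arrays and 12.72 to 13.38 on the 28 others. Its differences from total RNA were −0.69, −1.07, −0.82 and −0.65 in cold and non-stress CSP1-FH and cold and non-stress HF-RPL18 (limma adjusted p = 4.8e-05 to 0.00548). LHCB4.2 had 10.54 to 11.22 on the CSP1-IP arrays, over much the same range in cold (10.54 to 11.17) and non-stress plants (10.59 to 11.22). Its difference from total RNA was −1.15 in cold CSP1-FH (adjusted p = 0.0123) and −1.34 in cold HF-RPL18 (adjusted p = 0.000258), both called, but −0.81 in non-stress CSP1-FH (adjusted p = 0.0612) and −0.24 in non-stress HF-RPL18 (adjusted p = 0.531). In non-stress CSP1-FH the LHCB4.2 difference passed when replicate numbers entered as a block (limma adjusted p = 0.0406). Leaving out an array in CSP1-FH leaves 1 in its group, which is then assumed to vary like the other groups. In cold CSP1-FH, LHCB4.1 was −0.55 without total RNA array 1 (adjusted p = 0.0971) and −0.46, smaller by over 1.5 times, without CSP1-IP array 2 (adjusted p = 0.111). LHCB4.2 stayed at −1.04 and −1.0 without those arrays (adjusted p = 0.0962 and 0.0836), and PSAN at −0.79 without total RNA array 2 (adjusted p = 0.0582), so there the size was kept and the call was not. At unchanged differences, LHCB4.1 lost its call with only the groups compared (adjusted p = 0.123) and LHCB4.2 with array weights (adjusted p = 0.0552). In non-stress HF-RPL18, PSAN lost its call with only the groups compared (adjusted p = 0.0625).

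The signals of CSP1-IP arrays were less spread than those of the other pools, and the 5 genes lie at the top of the scale. Over probe sets the SD ran from 1.83 to 2.14 on CSP1-IP arrays, from 2.23 to 2.31 on polysomal arrays and from 2.27 to 2.32 on total RNA arrays, and the median probe set was 0.13 to 0.20 higher in CSP1-IP than in total RNA. After cyclic loess normalisation, which removes differences that depend on signal strength, the median of all probe sets was within 0.014 of 0 and all 20 differences of the 5 genes were higher than on the deposited values. Loess would also remove a true loss shared by bright mRNAs. A gene called higher or lower after loess is so only relative to probe sets of similar signal. ATPC1 was still called lower in 4 of 4 comparisons, at −0.57 and −0.98 in cold and non-stress CSP1-FH (limma adjusted p = 0.0422 and 0.000482) and −0.61 and −1.04 in cold and non-stress HF-RPL18 (adjusted p = 0.00473 and 1.57e-05). PSAE-1 was then called higher in 4 of 4, by 0.66 and 0.49 in CSP1-FH (adjusted p = 0.00769 and 0.0422) and 0.64 and 0.58 in HF-RPL18 (adjusted p = 0.00102 and 0.00263).

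LHCB4.1 and PSAN lost all their calls after loess, with differences of −0.21 to −0.08 and −0.28 to −0.21. LHCB4.2 had −0.53 and 0.05 in cold and non-stress CSP1-FH and −0.57 and 0.31 in cold and non-stress HF-RPL18, none called, so its sign in non-stress plants depends on the normalisation. On this scale 2 of the 5 genes were called in each comparison, against 18.9% of probe sets in cold CSP1-FH, 23.9% in non-stress CSP1-FH, 31.1% in cold HF-RPL18 and 25.9% in non-stress HF-RPL18. In both settings PSAE-1 had the highest and ATPC1 the lowest difference of the 5 genes in 4 of 4 comparisons, though in the cold ones LHCB4.2 lay close to ATPC1.

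**Figure D3:**
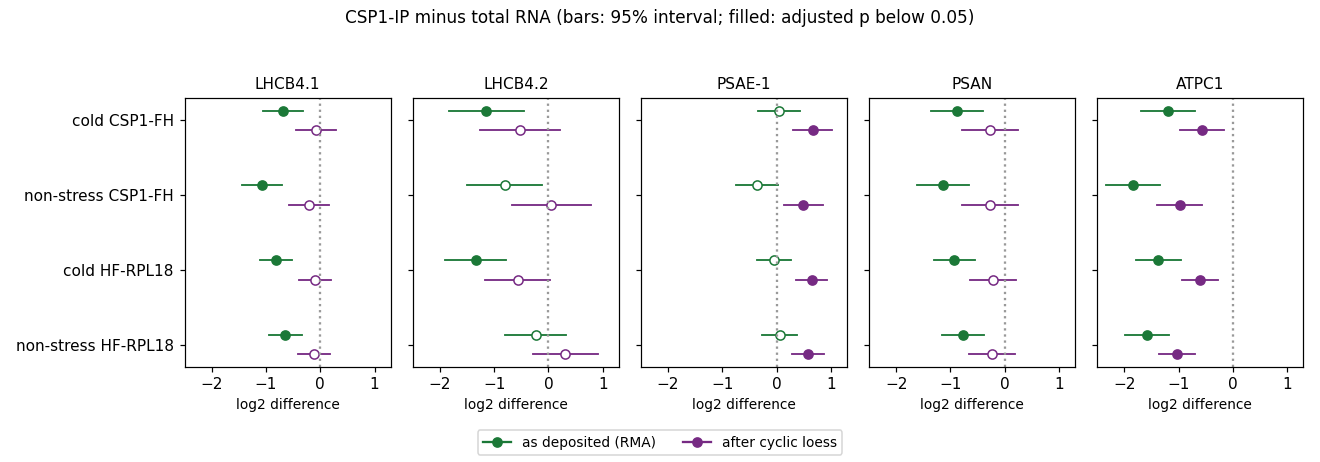
CSP1-IP minus total RNA log2 difference (x axis) for each gene in each line and condition (y axis), as deposited (green) and after cyclic loess normalisation (purple); bars are 95% intervals and filled points passed an adjusted p of 0.05. ATPC1 stays filled and below 0 in both settings, PSAE-1 is filled and above 0 only after loess, and LHCB4.1 and PSAN are filled only as deposited.

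Against polysomal RNA the picture was close to that against total RNA, and these comparisons reuse the same CSP1-IP arrays. On the deposited values, 4 of the 5 genes were called lower in cold CSP1-FH (13.4% of probe sets), 5 in non-stress CSP1-FH (16.1%), 4 in cold HF-RPL18 (20.8%) and 4 in non-stress HF-RPL18 (15.9%). LHCB4.2 was the furthest down in the cold, at −1.46 in CSP1-FH (limma adjusted p = 0.00188) and −1.82 in HF-RPL18 (adjusted p = 6.2e-06), where ATPC1 was at −0.91 and −1.25. In non-stress plants ATPC1 was furthest down, at −1.71 in CSP1-FH and −1.27 in HF-RPL18, and LHCB4.2 was at −1.03 (adjusted p = 0.019) and −0.77 (adjusted p = 0.0337). Both non-stress calls of LHCB4.2 were close to the threshold. In CSP1-FH it was −0.91 without CSP1-IP array 1 (adjusted p = 0.098) and −0.69 without polysomal array 2 (adjusted p = 0.22), and at −1.03 the call was lost with only the groups compared (adjusted p = 0.0744) and with array weights (adjusted p = 0.147). In HF-RPL18 it was −0.79 to −0.54 without CSP1-IP array 1 or 2 or polysomal array 2 or 3 (adjusted p = 0.0616 to 0.186), −0.77 with only the groups compared (adjusted p = 0.0925) and −0.73 with array weights (adjusted p = 0.107). In cold CSP1-FH, without polysomal array 1 LHCB4.1 was −0.65, PSAN −0.78 and ATPC1 −0.82, about as large as with it but short of the threshold (adjusted p = 0.0501 to 0.0646). Without CSP1-IP array 2 PSAN was −0.76 (adjusted p = 0.0544), while LHCB4.1 was −0.46 (adjusted p = 0.11) and ATPC1 −0.54 (adjusted p = 0.164), smaller by over 1.5 times. With only the groups compared, LHCB4.1 and ATPC1 at unchanged differences also lost their calls there (adjusted p = 0.114 and 0.0925), and PSAN stood at the threshold (adjusted p = 0.05). The call of PSAE-1 in non-stress CSP1-FH (−0.52, limma adjusted p = 0.0331) rested on the low array 2 of CSP1-IP, without which it was −0.18 (adjusted p = 0.572). It was −0.62 and −0.43 without polysomal arrays 1 and 2 (adjusted p = 0.0573 and 0.189), and the same −0.52 missed the threshold with only the groups compared (adjusted p = 0.313) and with array weights (adjusted p = 0.0798).

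After loess, ATPC1 was called lower than in polysomal RNA in the 2 non-stress comparisons only, at −0.77 in CSP1-FH (limma adjusted p = 0.0047) and −0.61 in HF-RPL18 (adjusted p = 0.00518), and was −0.22 and −0.35 in the cold ones. LHCB4.2 was still called lower in cold HF-RPL18 (−0.92, adjusted p = 0.0168), and PSAE-1 was higher in cold CSP1-FH (0.65), cold HF-RPL18 (0.68) and non-stress HF-RPL18 (0.53), with 0.44 in non-stress CSP1-FH (adjusted p = 0.0635). The shares of probe sets called on loess values were 20.3% in cold CSP1-FH, 25.8% in non-stress CSP1-FH, 31.9% in cold HF-RPL18 and 26.6% in non-stress HF-RPL18.

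Other nuclear photosynthesis genes in CSP1-IP RNA fell on both sides of the members. Of the 9 measured, 6 were called lower than in total RNA in all 4 comparisons on the deposited values, and their medians over the 9 were −1.05 and −1.59 in cold and non-stress CSP1-FH and −1.05 and −1.16 in cold and non-stress HF-RPL18, against a median of all probe sets of 0.16, 0.20, 0.20 and 0.13. On the deposited values LHCB4.3, the third CP29 gene, had differences below those of LHCB4.1 and LHCB4.2 in each comparison, which was not tested. In cold HF-RPL18 the margin to LHCB4.2 (−1.34) was slight, and after loess LHCB4.2 (−0.57) lay below LHCB4.3 (−0.54) there. The deposited differences of LHCB4.3 were −1.61 and −2.1 in cold and non-stress CSP1-FH and −1.36 and −2.25 in cold and non-stress HF-RPL18. RCA, which reactivates rubisco, had differences of −1.43, −2.81, −1.77 and −1.82 in the same order. The Calvin-Benson enzymes PRK (−1.84 to −1.26) and SBPASE (−1.16 to −0.92), the small photosystem II protein PSBY (−1.82 to −1.16) and the photosystem II assembly factor PSB27 (−1.59 to −0.93) made up the rest of the 6.

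PSBW and PETM, named after their values were seen to complete the 9, had differences close to those of PSAE-1 except in non-stress CSP1-FH. There PSAE-1 was at −0.37, PSBW at 0.16 and PETM at 0.19. PSBW, a small subunit of photosystem II, differed by −0.23 to 0.16 and PETM, a small subunit of cytochrome b6f, by −0.20 to 0.19, and neither was called on the deposited values. After loess PETM was called higher in 4 of 4 comparisons (0.51 to 1.04) and PSBW in 3 of 4 (0.39 to 1.02, with 0.39 in cold CSP1-FH not called). ATPC2, the second gamma subunit gene, had the opposite sign to its paralogue ATPC1 and was higher in CSP1-IP than in total RNA by 1.1 in non-stress HF-RPL18 (limma adjusted p = 0.000655, and 1.08 after loess), and by 0.45 to 0.60 without passing in the other 3. Its signals were low, with group means of 5.25 in CSP1-IP RNA and 4.15 in total RNA of non-stress HF-RPL18.

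After loess, RCA was still called lower in 4 of 4 comparisons (−1.95 to −0.82), PRK in 3 of 4, PSBY in 2 of 4, LHCB4.3 and PSB27 in 1 of 4 and SBPASE in 0 of 4. Of the 32 plastid-encoded subunits, 16 and 19 were lower in cold and non-stress CSP1-FH and 19 and 25 in cold and non-stress HF-RPL18, with 0 higher and medians of −1.71, −2.72, −1.85 and −2.77. The plastid-encoded beta and alpha subunits of the ATP synthase in which the ATPC1 protein turns, atpB and atpA, had differences of −6.23 and −4.91 in non-stress CSP1-FH. FMA, of the guard cell markers, was lower in CSP1-IP than in total RNA in 3 of the 4 comparisons (−0.90 in cold CSP1-FH, −1.01 in non-stress CSP1-FH and −1.04 in non-stress HF-RPL18), at signals of 3.13 to 4.15 in CSP1-IP RNA and 4.03 to 4.72 in total RNA of these lines. TRY was called in none of them. The part of these markers in the CSP1-IP results was not tested.

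**Figure D4:**
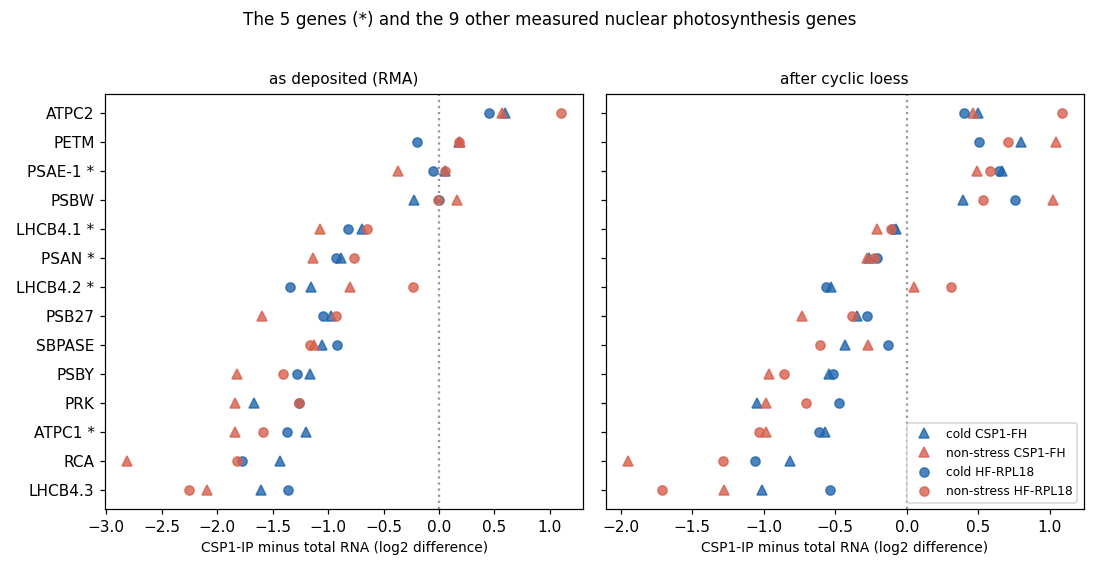
CSP1-IP minus total RNA log2 difference (x axis) of the 5 genes (starred) and the 9 other measured nuclear photosynthesis genes (y axis), as deposited (left) and after cyclic loess (right); triangles are CSP1-FH, circles HF-RPL18, blue cold and red non-stress. PSAE-1 lies with PSBW, PETM and ATPC2 at the upper end in both panels, and ATPC1 lies with RCA, PRK and LHCB4.3 towards the lower end.

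The fourth comparison set the lines against each other within a pool and condition. None of the 5 genes was called by limma in any of the 10 comparisons, and none of the 50 values had an unadjusted p under 0.05. In atcsp1-1 and CSP1-FH total and polysomal RNA the differences from HF-RPL18 ran from −0.32 to 0.26, both ends being LHCB4.2, with 95% intervals that together reached from −0.95 to 0.89. For ATPC1 they ran from −0.12 to 0.16 and for PSAE-1 from −0.13 to 0.08, with intervals within −0.57 to 0.62 and −0.48 to 0.43. Few probe sets of any kind were called between lines in these pools: 0.00440% in each of the 4 cold comparisons and 0.00879% in each of the 4 non-stress ones.

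CSP1-IP RNA of CSP1-FH, set against that of HF-RPL18, differed by 0.01 to 0.27 in cold plants, above 0 for all 5 genes, and by −0.37 to −0.29 in non-stress plants, below 0 for all 5. None was called, against 7.22% of probe sets called in cold and 3.63% in non-stress plants. Without CSP1-IP array 1 of non-stress CSP1-FH, PSAE-1 was −0.69 (limma adjusted p = 0.0193), a value that sets the lone lowest array against 3 and takes its spread from other groups. The line difference in the CSP1-IP minus total RNA values, tested as a difference of differences, was called for none of the 5 genes, against 0.0572% of probe sets in cold and 0.0264% in non-stress plants.

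Whether the cold change differed between lines was tested as well. The cold change of LHCB4.2 less that in HF-RPL18 was −0.36 to −0.22 over the 4 tests (atcsp1-1 and CSP1-FH, total and polysomal RNA), with intervals that reached from −1.25 to 0.67. None of the 5 genes was called by limma and none had an unadjusted p under 0.05, with 0% of probe sets called in each of those 4 tests. Each of the 4 intervals held both 0 and the −0.89 that would cancel the total RNA change of HF-RPL18.

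Over the 12 group means of total and polysomal RNA, which share plants, normalisation and the cold difference, LHCB4.2 correlated with PSAN (Pearson r = 0.866) and against ATPC1 (r = −0.936), and LHCB4.1 with PSAE-1 (r = 0.863). Over all 16 group means, which add the CSP1-IP groups, LHCB4.1 went with ATPC1 (r = 0.957) and PSAN (r = 0.942). The probe sets most like each member over the 16 means were AT1G64510, AT5G07020 and AT2G37220 for LHCB4.1 (r = 0.988, 0.987 and 0.985) and AT4G31450, AT5G18490 and AT4G05150 for LHCB4.2 (0.985, 0.982 and 0.98). They were AT5G10750, AT2G20790 and AT1G62050 for PSAE-1 (0.902, 0.894 and 0.892), AT5G11700, ATU2AF35A and FATB for PSAN (0.986, 0.985 and 0.984), and AT3G61870, VHA-A3 and AT1G67280 for ATPC1 (0.989, 0.988 and 0.988).

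Over the 12 means of total and polysomal RNA alone, other probe sets ranked first for each member. They were AT2G40760, ROXY2 and AT3G59000 for LHCB4.1 (r = 0.92, 0.894 and 0.891), AT1G27930, AT5G46190 and AT5G40450 for LHCB4.2 (0.983, 0.982 and 0.979), and AT4G33670, AT3G08920 and AT4G17180 for PSAE-1 (0.971, 0.953 and 0.943). For PSAN they were AT5G60710, UGT80B1 and CYS1 (0.905, 0.896 and 0.893), and for ATPC1 they were AT3G48200, AT3G09250 and AT3G22150 (0.981, 0.98 and 0.973). These correlations describe group means that share pool and cold differences.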

How the data were processed

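The authors deposited log2 signals per probe set made with RMA, per the submitters' processing notes; the sources used here give neither its version nor the set of arrays normalised in one run. Of 22810 probe sets, 64 controls were left out and 22746 tested; 13513 (59.4%) had 1 annotated gene, 503 several and 8730 none. Labels named 38 arrays in 16 groups, and the study's design calls replicates biological. In R 4.3.3, limma 3.58.1 (lmFit, eBayes) fitted a mean per group over all arrays (22 residual and 5.22 prior degrees of freedom), with 2-sided p-values, adjusted by Benjamini-Hochberg over the 22746 probe sets, and calls at an adjusted p below 0.05. The code was tested on simulated data. Precision is limited by the number of arrays. The spread was shared by all groups, although CSP1-IP arrays deviated more from their group means (mean SD 0.371) than polysomal (0.223) or total RNA arrays (0.197). The SEs and adjusted p of CSP1-IP comparisons can therefore be too small. The members and gene lists were chosen with earlier results of these data known. Named were all members, up to 4 called genes of a list with the largest difference (2 where none was called), and the 3 best correlated probe sets.

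Alternatives were cyclic loess, subtracting array medians, leaving out dim probe sets (mean at or below the 25th percentile), fitting only the groups compared, leaving out CSP1-IP arrays, array weights, the replicate number as a block, and leaving out each array. Same-numbered arrays of total and polysomal HF-RPL18 groups deviated together in 18 of 18 same-numbered pairs (r 0.19 to 0.73), so these numbers pair the arrays. Pairs with a CSP1-IP group did not all do so (r −0.11 to 0.23). Between HF-RPL18 and each other line, same-numbered arrays of total or polysomal RNA also deviated together (r 0.151 to 0.585). The lines are therefore not independent repeats in the averages over the lines.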

Additional observations from a re-analysis of the deposited data

How the results depend on the processing

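Over 1435 values of the 5 genes under the alternatives other than leaving out 1 array, 37 lost their call, 15 gained one, 7 reversed and 48 others changed sign without passing in either setting. Reversed here means a change of sign with a pass in only 1 of the settings, so no gene was called in opposite directions. The number of the 5 genes called in cold total RNA of HF-RPL18 was 1, against 2 without the CSP1-IP arrays or with weights for arrays, 0 without the arrays numbered 1, and 0 to 1 when 1 array was left out. In polysomal RNA of HF-RPL18 it was 0, against 1 with the replicate block, cyclic loess, array medians, without dim probe sets or with array weights, 2 in the mean over the lines and 0 to 1 with 1 array left out; in CSP1-FH it was 0, against 1 without the CSP1-IP arrays. Against total RNA, the count of 4 in cold HF-RPL18 and 4 in cold CSP1-FH (2 to 4 with 1 array left out) became 2 in each with loess, of which 1 was a call kept (ATPC1) and 1 was PSAE-1, then higher. Against polysomal RNA, the counts of 4 in cold and 4 in non-stress HF-RPL18 became 2 in each with loess, 1 kept (LHCB4.2 in cold, ATPC1 in non-stress plants) and 1 PSAE-1, then higher. The count of 5 in non-stress CSP1-FH became 1 (ATPC1, kept) with loess, 3 with only the groups compared, 3 with array weights and 3 to 5 with 1 array left out. Calls over all probe sets fell there too, from 7492 to 5876 with loess and to 4146 with only the groups compared. The count of 4 in cold CSP1-FH became 1 with loess, which was PSAE-1 and none of the 4, 1 with only the groups compared and 1 to 4 with 1 array left out. Over all probe sets the calls there fell from 6033 to 4616 with loess. Between lines, PSAE-1 in non-stress CSP1-IP RNA gave 0 to 1 calls with 1 array left out. Leaving out an array of a group of 2 leaves 1, assumed to vary like the other groups. The 7 reversals all came with cyclic loess: PSAE-1 was then 0.64 in cold HF-RPL18 and 0.49 in non-stress CSP1-FH against total RNA, and 0.65 in cold CSP1-FH, 0.44 in non-stress CSP1-FH, 0.68 in cold HF-RPL18 and 0.53 in non-stress HF-RPL18 against polysomal RNA, and LHCB4.1 was 0.0045 in cold CSP1-FH against polysomal RNA. The values of 0.44 and 0.0045 were lost calls, and the others were called only after loess. With 1 array left out, 25 of 1240 values lost their call, 3 gained one, 0 reversed and 123 changed sign without passing in either setting. The replicate block changed no call other than those of LHCB4.2 in cold polysomal RNA of HF-RPL18 (0.84, limma adjusted p = 0.0273) and in CSP1-IP RNA of non-stress CSP1-FH against total RNA (−0.81, adjusted p = 0.0406). Counts over all probe sets moved by over 1.5 times most often with array weights (30 of 41 comparisons), then with only the groups compared (28) and with CSP1-IP arrays left out (19). Cold total RNA of HF-RPL18 had 2447 calls, against 4806 with array weights and 3970 with CSP1-IP arrays left out, and cold polysomal RNA of HF-RPL18 had 2061, against 3565 and 3680. The mean over the lines gave 4589 calls in cold polysomal RNA. Cold polysomal RNA of CSP1-FH had 1042, against 2013 with CSP1-IP arrays left out. Counts of the 5 genes thus often moved with those of all probe sets. Cold CSP1-IP RNA of HF-RPL18 had 6491, against 634 with only the groups compared and 725 with array weights. Polysomal against total RNA of cold HF-RPL18 had 645, against 2726 without the CSP1-IP arrays, and CSP1-IP against total RNA of cold HF-RPL18 had 12672, against 5851 with only the groups compared. The 2 or 3 arrays a group limit precision, the arrays do not measure depth.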
